A study of Mus musculus with 32 samples.

Results

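Cytosolic ribosomal protein genes were taken by name: every probe whose gene symbol was Rpl or Rps followed by a digit, without the Rps6k kinases, 4 genes of the array. This gave 58 genes on 88 probes, of 9030 named genes and 20794 probes on the array. They were 31 genes of large subunit proteins, 21 genes of small subunit proteins, the 5 paralogs Rpl7l1, Rpl22l1, Rpl36al, Rpl39l and Rps27l, and Rps19bp1. The last gene was taken through its name only: it encodes a nucleolar protein that binds Rps19 and is no part of the mature ribosome. The acidic stalk proteins Rplp0, Rplp1 and Rplp2 and the small subunit protein Rpsa have other names and are described at the end.

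The ribosome translates mRNA into protein and is built of a small subunit, which decodes the mRNA, and a large subunit, which joins the amino acids. Its proteins are made in equal amounts, and the mRNAs of nearly all of them begin with a C and a run of pyrimidines, the terminal oligopyrimidine (TOP) motif, through which mTOR signalling and the protein Larp1 set their translation together. Photoreceptors renew their outer segments throughout life and have a high demand for protein synthesis. Ribosomal protein genes have many near-identical processed pseudogenes in the mouse, and how far the cDNA probes on the array keep such copies apart is not known here.

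The data were 32 two-colour cDNA arrays, 12 of eye, 12 of brain and 8 of heart. Each array set total RNA of an organ of sighted C3H mice (males of the seh line, per the series' design text) against RNA pooled from 6 control males, labelled C3H.pde6b-, of the same organ. Pde6b encodes a subunit of the rod phosphodiesterase, and C3H mice without it lose their rods early in life, so that the controls had degenerate retinas. Brain and heart were set against pools of the same control mice, eye against a pool of other mice. The mice's ages are not known here. A replicate is the mean of 2 consecutive arrays of opposite dye, turned so that a value above 0 is higher in sighted mice, which gave 6 replicates of eye, 6 of brain and 4 of heart. No label ties arrays to animals. The spread behind every p-value is that between pairs of arrays, which may be technical. All values below are log2 ratios of sighted over control, with SD over replicates, and the direction of the deposited ratio is likely rather than stated, since it was read from the rod genes. In eye, 6 of 6 measured rod genes passed the test as higher, with medians per replicate between 4.60 and 5.11. An array reports a ratio of 2 RNA samples, so the values give no level of a gene and set no gene's abundance against another's.

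Sequences around the annotated transcription start are shown for the members that passed the test in eye (described next), because the TOP motif lies there. They are RefSeq promoters of mouse build GRCm38.p6, 15 bases on each side of the start, 5′ to 3′ on the gene's strand. Capitals mark every run of at least 5 pyrimidines counted from a C within 10 bases of the start. The base before that C may itself be a pyrimidine, and the counts below follow the same rule. The first 6 belong to genes lower in sighted eye and hold such a run; Rps27l has another annotated start, at chr9:66946398-66946427, with none:
Rpl12 at chr2:32961697-32961726 (+): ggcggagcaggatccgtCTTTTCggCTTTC
Rps10 at chr17:27635230-27635259 (-): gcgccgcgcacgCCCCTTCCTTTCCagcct
Rps18 at chr17:33955651-33955680 (-): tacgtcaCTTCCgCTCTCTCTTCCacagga
Rps26 at chr10:128626492-128626521 (-): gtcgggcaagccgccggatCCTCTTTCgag
Rps9 at chr7:3704026-3704055 (+): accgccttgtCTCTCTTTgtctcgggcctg
Rps27l at chr9:66946071-66946100 (+): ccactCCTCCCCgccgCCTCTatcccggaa
The next 4 were lower in sighted eye and hold no such run that opens within 10 bases of the start:
Rpl11 at chr4:136053379-136053408 (-): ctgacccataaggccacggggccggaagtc
Rpl13 at chr8:123102335-123102364 (+): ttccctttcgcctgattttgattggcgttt
Rps3a1 at chr3:86142654-86142683 (-): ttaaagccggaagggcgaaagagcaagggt
Rpl5 at chr5:107900513-107900542 (+): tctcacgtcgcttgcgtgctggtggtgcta
The last 2 were higher in sighted eye:
Rpl23 at chr11:97782425-97782454 (-): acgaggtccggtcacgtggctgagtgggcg
Rps19bp1 at chr15:80264292-80264321 (-): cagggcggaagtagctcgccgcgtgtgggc

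Of the members, 51 had a promoter in the RefSeq table, 59 promoters in all. The pyrimidine run, sought on the gene's strand, stood in 31 of the 59 (52.5%), against 30.7% of all 32851 promoters of the table. The letters CCGGAAG, which factors of the ETS family such as GABP are known to bind, stood on either strand of the 300 bases from 250 before to 50 after the start in 21 of the 59 (35.6%), against 8.9% of all promoters. On the gene's strand the reverse complement of these letters, CTTCCGG, can overlap a pyrimidine run. Among members lower in eye each pattern stood in 6 of 11 promoters, and in neither of the 2 promoters of members higher in eye. A missing run says only that no such run opens within 10 bases of this start. The Rpl13 window, for instance, holds a run of pyrimidines counted from a C farther upstream.

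In sighted eye, most ribosomal protein genes lay slightly below the control. Of 56 members tested, 49 had a mean below 0, against 7058 of all 15874 genes tested. The median of the 56 means was -0.17, against 0.027 over all genes tested. With limma and Benjamini-Hochberg adjustment at 0.05, 10 members were lower and 2 were higher, 12 in all. The test called 26.8% of all genes in eye, 11.0% as lower and 15.9% as higher. Among the members 17.9% were called lower and 3.57% higher. In this fit the members' share of lower calls was thus above the background and their share of higher calls below it. The excess of lower calls was lost without replicate 1 or 5, and was small without replicate 4 (5 of 56, against 8.3% of all genes). It was also lost with arrays taken singly and no dye term (3 of 56 lower, against 6.93%). With single arrays and a dye term it was kept (12 of 56, against 11.17%), as with the pair as random block (12 of 56, against 12.25%). At an unadjusted p under 0.05, 27 members were lower (48.2%, against 15.6% of all genes) and 3 were higher (5.36%, against 22.3%), together 53.6% against 37.9% of all genes. In such bulk samples fewer cells of a type and less RNA per cell cannot be told apart.

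**Figure D1:**
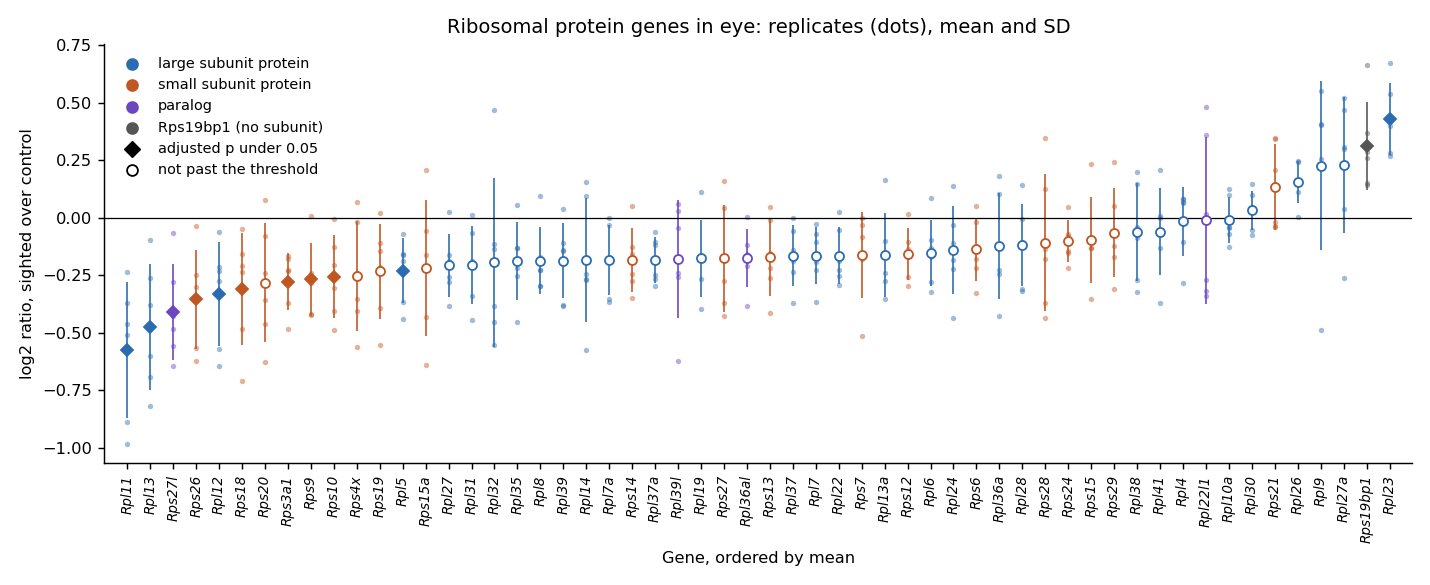
Log2 ratio of sighted over control eye (vertical axis) for the 56 members tested, ordered by mean. Dots are the replicates, larger symbols and bars the mean and SD, colours the subunit and filled diamonds an adjusted p under 0.05. From Rpl11 at -0.58 to Rpl23 at 0.43, 49 of the 56 means lie below 0.

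Large subunit genes made up the extremes. Rpl11, which with Rpl5 carries the 5S ribosomal RNA into the subunit and restrains Mdm2 when free, had replicates from -0.98 to -0.24 with a median of -0.49. All 6 replicates lay below 0, and the mean was -0.58 ± 0.30 (SD, n = 6; limma, adjusted p = 0.00496), a 1.49-fold lower signal. This value came from probes that differed: probe 19186 gave -1.03 ± 0.49 and passed alone (limma, adjusted p = 0.00251), whereas probe 12957 gave -0.12 ± 0.20 and did not (adjusted p = 0.330). Rpl5, its partner, had replicates from -0.44 to -0.072, all below 0, with a median of -0.17. Its mean was -0.23 ± 0.14 (SD, n = 6; limma, adjusted p = 0.0367).

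Rpl13 had replicates from -0.82 to -0.098 with a median of -0.49, again with all 6 below 0, and a mean of -0.48 ± 0.28 (limma, adjusted p = 0.00930). Rpl12, a protein at the base of the stalk to which elongation factors bind, ranged from -0.65 to -0.061 with a median of -0.25. Its mean was -0.33 ± 0.23 (limma, adjusted p = 0.0244), with every replicate below 0. Rpl23, another ribosomal protein known to bind Mdm2, went the other way in all 6 replicates. It ranged from 0.27 to 0.67 with a median of 0.41, and its mean of 0.43 ± 0.16 (limma, adjusted p = 0.00274) was a 1.35-fold higher signal. Rpl5, Rpl11 and Rpl23 therefore did not share a direction.

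The remaining large subunit genes did not pass. Nearest to the threshold were Rpl27 at -0.21 ± 0.14 (limma, adjusted p = 0.0520) and Rpl37a at -0.18 ± 0.10 (adjusted p = 0.0536), which was below 0 in all 6 replicates. Rpl26 was above 0 in all 6, between 0.002 and 0.25, with a mean of 0.15 ± 0.091 (limma, adjusted p = 0.0872). Rpl27a (0.23 ± 0.29), Rpl9 (0.23 ± 0.37) and Rpl30 (0.033 ± 0.085) were the other large subunit genes with a mean above 0. Rpl30 had the smallest spread of all members in eye. Rpl9 had the largest, because replicate 5 lay at -0.49 while the others lay between 0.23 and 0.55.

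Of 20 small subunit genes tested, 5 were lower and none higher, and 19 of the 20 means lay below 0. Rps26, a protein at the mRNA exit channel, ranged from -0.62 to -0.037 with a median of -0.32, all 6 replicates below 0, and had a mean of -0.36 ± 0.22 (limma, adjusted p = 0.0164). Rps18, in the head of the subunit, ranged from -0.71 to -0.049 with a median of -0.22 and had a mean of -0.31 ± 0.24 (limma, adjusted p = 0.0403). Rps3a1 had the tightest replicates of the 5, from -0.49 to -0.17 with a median of -0.23, and a mean of -0.28 ± 0.13 (limma, adjusted p = 0.0139). Both of these genes were below 0 in all 6 replicates.

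Rps9, which helps to form the mRNA entry channel, was below 0 in 5 of 6 replicates. It ranged from -0.42 to 0.0085 with a median of -0.27, and its mean was -0.27 ± 0.16 (limma, adjusted p = 0.0248). Rps10, another protein of the subunit's head, ranged from -0.49 to -0.0045 with a median of -0.26 and had a mean of -0.26 ± 0.18 (limma, adjusted p = 0.0387). Rps20 had a mean farther from 0 than either, -0.28 ± 0.26, but did not pass (limma, adjusted p = 0.0635), with replicate 3 at 0.079. The single small subunit gene with a mean above 0 was Rps21, at 0.13 ± 0.19 (adjusted p = 0.256).

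Among the 4 paralogs tested, Rps27l was lower, at -0.41 ± 0.21 (SD, n = 6; limma, adjusted p = 0.00767). Rps27l is a close copy of Rps27 whose transcription p53 is known to raise. Its replicates ran from -0.64 to -0.065 with a median of -0.46, while Rps27 itself had a mean of -0.18 ± 0.23 (limma, adjusted p = 0.193). Rps19bp1, which is no ribosomal subunit, was higher in all 6 replicates, from 0.14 to 0.67 with a median of 0.27, and had a mean of 0.31 ± 0.19 (limma, adjusted p = 0.0211). Without it, Rpl23 was the only member higher in eye. Rps16 and Rpl7l1 could not be tested in eye, with values in 3 replicates (-0.13, -0.35 and -0.18) and in 1 (1.58).

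These calls rested on small differences. Leaving out 1 replicate at a time, Rpl11, Rpl13, Rps27l and Rpl23 passed in all 6 cases, Rps3a1 in 5, Rps26 and Rps19bp1 in 4, Rpl12 in 3, Rps9, Rps10 and Rpl5 in 2 and Rps18 in 1. The number of lower members was 4 of 56 without replicate 1 (9.0% of all genes) and 5 without replicate 4 (8.3%). It was 3 without replicate 5 (8.2%) and 16 without replicate 3 (9.8%). Without replicate 1 or 5 the members' share of lower calls was thus below that of all genes, and without replicate 4 it was near it. The 2 higher members fell to 1 without replicate 1 (11.7% of all genes). When every array was first centred on its own median, 28 members were lower (16 large subunit, 10 small subunit and 2 paralog genes) and 2 were higher, against 15.2% and 16.0% of all genes. All 10 genes called lower without centring were among the 28.

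The members moved together from replicate to replicate. In eye replicates 1 to 6 their median was -0.37, -0.15, 0.052, -0.18, -0.29 and -0.067, and the median of all genes was 0.079, -0.10, 0.14, 0.0075, -0.021 and 0.10. Replicate 3 was thus the only one in which the members' median lay above 0, yet it too lay below the median of all genes. The difference of the 2 medians was below 0 in 6 of 6 replicates, -0.45, -0.051, -0.089, -0.19, -0.27 and -0.17, with a mean of -0.20 ± 0.14. Of the 56 members, 44 had their highest value in replicate 3 (30.7% of all genes) and 34 their lowest in replicate 1 (10.9% of all genes). In eye 13 members were below 0 in every replicate (23.2%, against 13.0% of all genes) and 3 above 0 in every replicate (5.36%, against 18.3%).

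**Figure D2:**
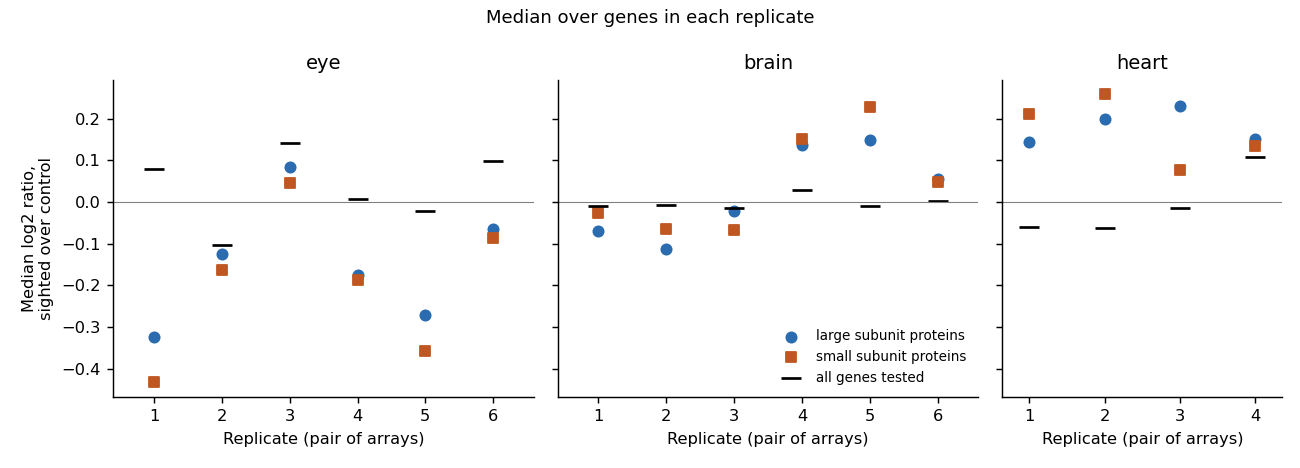
Median log2 ratio of sighted over control (vertical axis) in each replicate, a pair of arrays, of eye, brain and heart, for large subunit genes (circles), small subunit genes (squares) and all genes tested (bars). In eye both subunits lie below the bar in all 6 replicates, and in heart the members' median lies above it in all 4.

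Other tissues of the eye also differed between the groups. Lens genes were higher (9 of 10, 1 lower), with medians per replicate between 0.085 and 0.99. Genes of cornea and surface epithelium (9 of 9 lower, medians -1.53 to -0.77), skeletal muscle (11 of 12 lower, 1 higher, -1.18 to -0.51), immune cells (10 of 13 lower, -0.69 to -0.26) and blood (3 of 3 lower, -1.85 to -0.70) were lower. In replicate 1, where 34 members were lowest, the lens and cornea medians were at their lowest (0.085 and -1.53), the muscle median at its highest (-0.51), and blood (-1.68) and immune cells (-0.55) were second to replicate 2 (-1.85 and -0.69). The part of these tissues in the ribosomal values was not tested.

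The dye had a large share in single arrays. On the eye arrays with sighted RNA in Cy5 the members' median lay between -0.010 and 0.36, and on those with sighted RNA in Cy3 between -0.83 and -0.12. Relative to the median of all genes on the same array, it was below 0 on 5 of 6 Cy5 arrays (-0.37 to 0.027) and on 6 of 6 Cy3 arrays (-0.50 to -0.11). The lower position of the members relative to other genes therefore appeared in both orientations, whereas the calls against 0 did not. With Cy5 arrays alone 1 of 57 members was lower and 11 higher, against 3.12% and 37.25% of all genes. With Cy3 arrays alone 31 of 56 were lower and none higher, against 20.8% and 3.39% of all genes. A single orientation leaves the dye effect in the values.

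**Figure D3:**
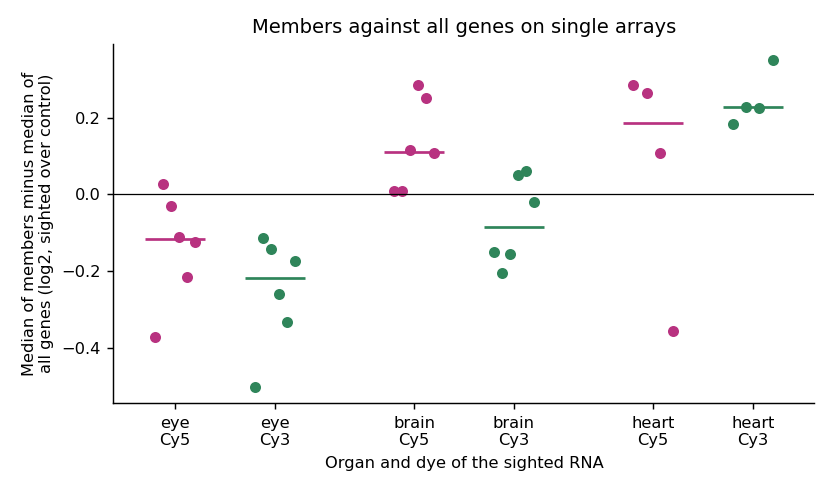
Median log2 ratio of the members minus that of all genes (vertical axis) on each array, turned to sighted over control, by organ and by the dye of the sighted RNA; lines are medians over arrays. Eye points lie below 0 on 11 of 12 arrays, brain points lie above 0 with Cy5 and mostly below 0 with Cy3, and 1 of 8 heart arrays lies below 0.

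Large and small subunit genes differed little. In eye the large subunit median minus the small subunit median was above 0 in 6 of 6 replicates, between 0.012 and 0.11, with a mean of 0.051 ± 0.038 (SD, n = 6). It was -0.022 ± 0.044 in brain (SD, n = 6) and 0.011 ± 0.10 in heart (SD, n = 4), where replicates fell on both sides of 0. The eye difference was 0.10 with Cy5 arrays alone and 0.0012 with Cy3 arrays alone. In brain, Cy5 arrays alone gave 0.12 and Cy3 arrays alone -0.14. The mean of both orientations in a gene, in which the sighted-to-control difference cancels, had a median of 0.24 over large and 0.062 over small subunit genes in brain, 0.31 and 0.30 in eye, and 0.084 and -0.036 in heart.

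In brain no member passed the test (0 of 56, limma), and none had an unadjusted p under 0.05, against 4.08% of all genes (1.96% higher and 2.12% lower). Over all genes the test called 1 of 16112, or 0.00621%. Member means ran from -0.098 for Rpl23 to 0.15 for Rpl28, and 38 of 56 lay above 0, against 7806 of all 16112 genes. The smallest p belonged to Rpl28, a large subunit protein, with replicates from -0.021 to 0.36, a median of 0.11 and a mean of 0.15 ± 0.16 (SD, n = 6; limma, adjusted p = 0.959). The other genes with the smallest p were Rps14 (0.13 ± 0.22) and Rps19 (0.099 ± 0.16) above 0, and Rpl8 (-0.094 ± 0.079), Rps4x (-0.090 ± 0.086) and Rps19bp1 (-0.087 ± 0.17) below 0. Rps19 is needed for the maturation of the small subunit's ribosomal RNA and was the first gene found mutated in Diamond-Blackfan anaemia.

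Brain replicates also moved as a group. The members' median was -0.062, -0.11 and -0.043 in replicates 1 to 3 and 0.14, 0.18 and 0.052 in replicates 4 to 6, and 29 of 56 members had their highest value in replicate 5 (22.2% of all genes). Relative to all genes the median was below 0 in 3 and above 0 in 3 replicates, with a mean of 0.028 ± 0.11. No member was on 1 side of 0 in every replicate, against 1.34% of all genes above and 1.58% below. Rpl9 varied most, from -0.63 to 1.62 (0.061 ± 0.87), and Rpl30 least, from -0.13 to 0.061. Rpl22l1, measured in 3 brain replicates (-0.20, -0.043 and 2.15), and Rpl7l1 could not be tested.

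In heart the members lay above 0, but none passed the test. Of 54 tested, 48 had a mean above 0, namely 29 of 30 large subunit genes, 16 of 20 small subunit genes, 2 of 3 paralogs and Rps19bp1. The median of the means was 0.16, against -0.013 over all 12755 genes tested, of which 6167 had a mean above 0. No gene of the array passed in heart (limma, 0% called). At an unadjusted p under 0.05, 7 members were higher (13.0%, against 3.63% of all genes) and none lower (4.54% of all genes, 8.17% in both directions). They were Rpl28, Rpl32, Rpl39, Rpl13, Rpl7, Rps7 and Rps27. Of the 48 members measured in every replicate, 19 were above 0 in all 4 (39.6%, against 12.9% of all genes) and none below (12.4% of all genes).

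Rpl28 had heart replicates of 0.42, 0.31, 0.41 and 1.01, all above 0 with replicate 4 apart, and a mean of 0.54 ± 0.32 (SD, n = 4; limma, adjusted p = 0.568). Rpl32 had 0.41, 0.26, 0.39 and 1.06, a mean of 0.53 ± 0.36 at the same adjusted p, but -0.51 with Cy3 arrays alone and -0.16 where 1 array of a pair was enough. Rpl39, a small protein in the wall of the peptide exit tunnel, had 0.50, 0.45, 0.55 and 0.14 and a mean of 0.41 ± 0.18. Rpl13, lower in eye, had 0.34, 0.57, 0.19 and 0.42 and a mean of 0.38 ± 0.16. The genes below 0 with the smallest p were Rpl6 (-0.14 ± 0.17), Rpl39l (-0.23 ± 0.68, n = 3), a paralog known mainly from testis, and Rps12 (-0.10 ± 0.14, n = 3). Spread was largest for Rpl23 (0.35 ± 1.25, n = 3) and smallest for Rpl27a (0.0083 ± 0.049, n = 3).

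The members' median in the 4 heart replicates was 0.17, 0.24, 0.17 and 0.14, and that of all genes -0.061, -0.062, -0.015 and 0.11. The difference was above 0 in 4 of 4 replicates, with a mean of 0.19 ± 0.11, but it was 0.033 in replicate 4. One array of that replicate missed 61.6% of its values, and on it the members' median lay 0.36 below that of all genes. On this array Rpl28 stood at 1.485 and Rpl32 at 2.10, against 0.53 and -0.44 on its partner. On the other 7 heart arrays the members lay above all genes, by 0.11 to 0.35. The other members, 4 in all, could not be tested in heart. Rps16 had 0.13 and -2.05, Rpl9 had 1.81 and -0.061, Rpl22l1 had 0.41 in 1 replicate, and Rpl7l1 had no value, as in brain.

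Differences between organs were tested with each organ's own spread. Eye was set against a pool of other control mice than brain and heart. In the differences of eye from brain and heart, organ and control pool therefore cannot be told apart. The spread between pairs of arrays does not include a difference between pools. Eye was below brain in 47 of 55 members, with a median difference of -0.20 against 0.032 over all 15499 genes. Of the 55, 8 passed as lower in eye (14.5%, against 7.14% of all genes) and 1 as higher (1.82%, against 11.3%), 9 in all (16.4%, against 18.4%). The largest was Rpl11, at -0.59 ± 0.13 (SE; limma variances, adjusted p = 0.00464). The others lower in eye were Rpl13 (-0.41), Rps26 (-0.39), Rps27l (-0.39), Rps3a1 (-0.34), Rps19 (-0.33), Rps10 (-0.29) and Rpl5 (-0.26), with adjusted p between 0.00989 and 0.0457. Rps19bp1 was higher in eye than in brain by 0.40 ± 0.11 (SE; adjusted p = 0.0162). The count of lower members fell to between 2 and 5 without eye replicate 1, 4, 5 or 6 or brain replicate 4, 5 or 6. In these cases 5.64% to 6.98% of all genes were lower. Without eye replicate 1 (3 of 55, against 6.28%), 4 (3, against 5.83%) or 5 (2, against 5.64%) the members' share was below that of all genes. The count was 12 without eye replicate 3 (6.86% of all genes). The count of higher members was 2 without eye replicate 2 (12.5% of all genes).

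Eye was below heart in 47 of 54 members (87.0%, against 44.6% of all genes), with a median difference of -0.37 against 0.051 over all 12547 genes. Rpl13 alone passed (1.85% of members, against 4.64% of all genes, 2.02% as lower and 2.61% as higher), with -0.48 in eye, 0.38 in heart and a difference of -0.86 ± 0.17 (SE; limma variances, adjusted p = 0.0168). The next by p were Rpl39 (-0.60, adjusted p = 0.0668), Rpl7 (-0.54, 0.0821), Rps10 (-0.57, 0.0844) and Rpl32 (-0.72, 0.0847). No member passed without any 1 of the 4 heart replicates, where 0.031% to 0.89% of all genes were lower and 0.32% to 1.63% higher. Without eye replicate 6, 2 passed as lower (2.14% of all genes). Such counts lie near the background. With a spread shared by all organs, 27 members were lower in eye than in heart and 5 lower in eye than in brain (9.65% and 4.87% of all genes), so which comparison gave more calls turned with the spread used. A mean below 0 in eye with a mean above 0 in heart was found for 42 of 54 members (77.8%), against 21.9% of all genes. Brain and heart share their control mice, and no member differed between them (0 of 54, and 0 of 12688 genes; limma variances). At an unadjusted p under 0.05 brain was below heart for Rpl13 (-0.45), Rpl32 (-0.50), Rps13 (-0.39) and Rpl7 (-0.35), each with an adjusted p of 0.558.

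**Figure D4:**
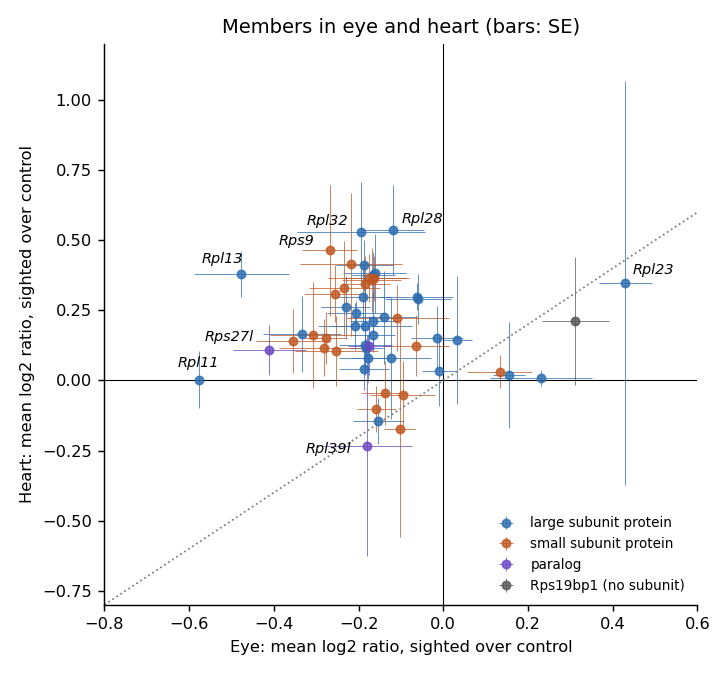
Mean log2 ratio of sighted over control in eye (horizontal axis) and heart (vertical axis) for the 54 members tested in both; bars are SE over replicates, colours the subunit, and the dotted line marks equal values. Of the 54 points, 42 lie left of 0 in eye and above 0 in heart, with Rpl13 (-0.48, 0.38) the member that passed the test of the difference.

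The ribosomal proteins outside the name rule fell to both sides in eye. Rplp0, the protein on which the stalk is built, was lower at -0.67 ± 0.26 (SD, n = 6; limma, adjusted p = 0.00147), farther from 0 than the mean of any member. Rplp1 was lower at -0.19 ± 0.084 (limma, adjusted p = 0.0399), Rpsa did not pass at -0.21 ± 0.17 (adjusted p = 0.0789), and Rplp2 lay at 0.063 ± 0.077. In heart all 4 had means above 0, from 0.17 for Rpsa to 0.45 for Rplp2, and none passed.

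Other genes of ribosome production and translation were counted in eye against the same background, 15.9% of all genes higher and 11.0% lower. Of 30 genes of ribosome biogenesis tested, 10 were higher (33.3%) and 0 lower, with a median of 0.11. They include Rrp1b, a nucleolar protein, at 0.82 ± 0.071 (SD, n = 6; limma, adjusted p = 2.41e-05), Utp3, of the machinery that matures the small subunit's RNA, at 0.53 ± 0.11, and Pes1, of large subunit maturation, at 0.49 ± 0.10. Of 59 mitochondrial ribosome genes, 10 were higher (16.95%, near the background), led by Mrpl49 at 0.85 ± 0.12 (limma, adjusted p = 4.47e-05), and Mrpl13 (-0.37 ± 0.26) and Mrpl16 (-0.23 ± 0.093) were lower (3.39%), with a median of 0.10. Of 46 translation factors and related genes, 7 were higher (15.2%, near the background) and 2 lower (4.35%), with a median of -0.038, and 26 of the 46 means lay below 0. The lower ones were Eif3i, a subunit of an initiation factor, at -0.30 ± 0.15 and Eef2, the factor that moves the ribosome along the mRNA, at -0.17 ± 0.060 (limma, adjusted p = 0.0127 and 0.0452). No gene of these lists passed in brain or heart, where their medians were between -0.027 and 0.11.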

How the data were processed

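Per the labels and the values, the deposited numbers are log2 ratios, Cy5 over Cy3, of each probe. How the arrays were scanned, background-corrected and normalized is not stated. Top values repeated above 15 were set missing. Brain array 3 is labelled Cy5 in both channels and was taken as sighted RNA in Cy5. Probe names come from the platform annotation. Signs were turned where the sighted RNA was in Cy3, then each probe was averaged over 2 consecutive arrays of opposite dye (both required) and each gene over its probes. Genes with 1 missing replicate were kept. The array numbers are the sole basis of the pairs, whose mean correlations were 0.070 (eye), 0.0053 (brain) and -0.014 (heart). The mean of each organ was tested against 0 over all genes with limma 3.58.1 (R 4.3.3), two-sided, with Benjamini-Hochberg adjustment at 0.05. Organ differences add the moderated variances of both organs (Satterthwaite) and leave out of account that brain and heart share control mice. Both fits were tested on simulated data.

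Members and gene lists were chosen with earlier results of these data known. Named genes are those that passed, the 3 with the smallest p in each direction where none passed, the 5 with the smallest p of each organ difference, and the largest and smallest spread. Up to 3 genes per direction were named from each other list. Genes just outside the threshold, and those named from counts, were added after their values were seen. Equal replicate numbers did not pair the organs: correlations of same-numbered replicates lay between -0.049 and 0.059.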

Additional observations from a re-analysis of the deposited data

Results flagged for a closer look

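Of 38 groups of replicates, 2 held a value far from the rest, where chance flags about 1 group in 20. Rpl9 in eye had its lowest value, -0.49, in replicate 5 of 6, and Rpl28 in heart had its highest value, 1.01, in replicate 4 of 4. That Rpl28 value joins 1.485 on the array that missed 61.6% of its values and 0.53 on its partner.

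Members whose ratio differed between eye and brain by the test of the difference were Rpl11 (-0.59), Rpl13 (-0.41), Rps26 (-0.39), Rps27l (-0.39), Rps3a1 (-0.34), Rps19 (-0.33), Rps10 (-0.29) and Rpl5 (-0.26), lower in eye, and Rps19bp1 (0.40), higher in eye. Between eye and heart Rpl13 differed, by -0.86. In these comparisons organ and control pool cannot be told apart.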

How the results depend on the processing

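Robust moderation, kept top values, a dye term or a random pair block left the counts of members within 1.5 times. In eye, where 10 members were lower and 2 higher, arrays taken singly with no dye term gave 3 and 1 (6.93% and 9.47% of all genes). Centring gave 28 lower members without scaling (15.2% of all genes) and with it (15.6%). With single probes, 18 of 56 members had at least 1 lower probe. The share of lower calls among all probes was 11.1%, which counts probes rather than genes and is no like measure. Leaving out the genes with most spread gave 18 (15.2% of the genes kept). Leaving out a replicate gave 3 to 16 lower and 1 to 3 higher (8.17% to 9.86% and 11.6% to 16.9% of all genes). Cy5 arrays alone gave 1 lower and 11 higher in eye (members' median 0.14, large minus small 0.10), 4 higher in brain (0.19 and 0.12) and large minus small 0.12 in heart. Of all genes they called 3.12% lower and 37.25% higher in eye and 4.2% higher in brain. Cy3 arrays alone gave 31 lower and 0 higher in eye (-0.46 and 0.0012), 10 lower in brain (-0.13 and -0.14), and 0.11 and -0.10 in heart. Of all genes these called 20.8% lower and 3.39% higher in eye and 7.48% lower in brain. Eye minus brain, 8 lower and 1 higher, became 15 lower when centred (9.2% of all genes) and 4 and 3 with Cy5 alone (2.78% and 20.3%). It had 0 higher with Cy3 alone (3.54%). Without a replicate it had 2 to 12 lower (5.64% to 6.98%) and 1 to 2 higher (9.08% to 12.5%). Eye minus heart, 1 lower, became 0 with Cy5 (0.0148% of all genes), 4 with Cy3 (1.42%) and 0 to 2 without a replicate (0.031% to 2.14%). A spread shared by all organs gave 5 lower and 0 higher for eye minus brain (4.87% and 7.65% of all genes) and 27 lower for eye minus heart (9.65%). With the replicate block the counts were 3, 0 and 22 (3.89%, 6.29% and 7.77%). Brain minus heart had 0 in both. Of all genes, 1.433% were higher and 1.425% lower there without the block, and 0% and 0.016% with it. The cause was not tested.

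Some named genes changed side of 0. In eye, Rpl30 did when centred (-6.25e-04), by probe 14757 (-0.0053) and with Cy3 alone (-0.23), as did Rps19bp1 with Cy3 (-0.19) and, with Cy5 alone, Rpl12 (0.051), Rps18 (0.17), Rps9 (0.046), Rps10 (0.039) and Rpl5 (0.046). In brain these were Rpl8 (0.23) and Rps19bp1 (0.25) with Cy5, Rpl28 (-0.16), Rpl9 (-0.51) and Rpl30 (0.097) with Cy3, and, leaving out 1 replicate, Rpl30 in brain (-0.037 to 3.000e-04, above 0 without replicate 3) and Rpl9 in brain (-0.25 to 0.20, below 0 without replicate 5 or, at -0.017, 6). In heart they were Rpl32 (-0.16) and Rps12 (0.042) where 1 array of a pair was enough, Rps12 by probe 18670 (0.053), Rpl39l with Cy5 (0.088), and with Cy3 Rpl32 (-0.51), Rpl6 (0.19), Rps12 (0.040), Rpl23 (-0.75) and Rpl27a (-0.022). Leaving out 1 heart replicate gave -0.60 to 0.070 for Rpl39l and -0.011 to 0.036 for Rpl27a (turned without replicate 1) and -0.33 to 0.90 for Rpl23 (turned without replicate 3). With Cy3 alone Rpl32 turned in eye minus heart (0.23) and brain minus heart (0.22). The number of arrays limits the precision, and signal over background is not known from the deposited ratios.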

Other observations

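Probes of the same member did not always give the same value; these genes were chosen after their values were seen. The 5 probes of Rps21 gave eye means of -0.090, -0.081, -0.074, 0.36 and 0.49, so that its gene mean of 0.13 joins probes on both sides of 0. The probes of Rpl4 spanned -0.19 to 0.33 in eye. Over the 22 members with more than 1 probe, the median gap between the highest and lowest probe was 0.20 in eye, 0.066 in brain and, over 21 members, 0.24 in heart, and no gap was over 1.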
